A study of Mus musculus with 6 samples.

Results

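The replication-dependent histone genes were examined in clones of the mouse kidney collecting duct line mpkCCD with and without protein kinase A (PKA). They were taken as every row of the deposited read table whose gene symbol begins with Hist1h, Hist2h, Hist3h or Hist4h. This gave 41 genes of the 20896 in the table: 31 in the Hist1 cluster, 7 in Hist2, 2 in Hist3 and 1 at Hist4. By protein class they were 4 linker H1 genes, 11 H2A, 15 H2B, 6 H3 and 5 H4 genes.

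RNA was sequenced from 6 clonal lines derived from mpkCCDc11 cells, 3 control clones and 3 PKA double knockout (dKO) clones, with 1 library for each clone. Every clone, control or dKO, was first grown for 4 days on permeable supports, given serum, insulin, dexamethasone, triiodothyronine, epidermal growth factor, selenite and transferrin, and then for 3 days with 0.1 nM dDAVP in medium without serum or hormones. dDAVP is a vasopressin analogue whose receptor raises cAMP, the activator of PKA, so the controls carried the agonist too and no library was without it. The labels give neither the edited genes nor how the control clones were made. Differences between clones that are unrelated to PKA cannot be told apart from an effect of the knockout.

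Histones package DNA. A pair each of H2A, H2B, H3 and H4 forms the nucleosome core, and H1 binds the linker DNA between cores. The clustered genes are transcribed chiefly in S phase, when new DNA needs new nucleosomes, under the co-activator NPAT at nuclear histone locus bodies. Their mRNAs as a rule carry no poly(A) tail and end in a conserved stem-loop that is bound by SLBP, so poly(A) selection loses most of them, whereas the ribosomal RNA depletion and random priming used here keep them.

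The stem-loops are shown first because they are the feature by which such transcripts are known. The letters GGNNCTTTNCAGNNCC, searched on the transcript strand in the GENCODE M21 models of GRCm38, were present in 21 of the 41 members and in 124 of all 141767 transcripts (0.0875%), of which 37 bear a clustered histone symbol. In the members with these letters the loop began 24 to 58 bases after the stop codon. Of the 20 members without them, 9 have models with at most 1 base after the stop codon, which do not reach that place, and the other 11 have 37 to 2192 bases after it, among them Hist2h2be with 2192, Hist1h3f with 417, Hist1h4i with 376 and the testis gene Hist1h1t with 230. The shortest of these, Hist2h3b with 37 and Hist1h1a with 48, can also end before a whole loop. A loop with other letters would not be found, so a member without a match does not thereby lack a loop. There were 2 kinds of loop: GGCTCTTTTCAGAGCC in 18 members and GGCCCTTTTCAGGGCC in 3, all 3 of them H4 genes. The lines below give the loop in capitals with the flanking bases for 3 members of the first kind and 2 of the second, on the strand of the gene.
Hist3h2ba, H2B, chr11:58949344-58949369, plus strand: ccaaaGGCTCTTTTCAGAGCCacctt
Hist3h2a, H2A, chr11:58955167-58955192, plus strand: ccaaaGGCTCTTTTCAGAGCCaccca
Hist1h1c, H1, chr13:23739507-23739532, plus strand: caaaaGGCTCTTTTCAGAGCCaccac
Hist1h4h, H4, chr13:23531453-23531478, plus strand: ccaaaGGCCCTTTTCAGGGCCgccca
Hist4h4, H4, chr6:136803993-136804018, minus strand: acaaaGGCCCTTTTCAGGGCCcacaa
Some models run well past the loop. The model of Hist4h4 goes on for 2445 bases, that of Hist1h2be for 1861, that of Hist3h2a for 1643 and that of Hist1h1c for 840, which lowers a level expressed per length if few reads fall there.

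The members' start regions are shown because they differ by class and because CREB, a transcription factor that PKA phosphorylates, binds the cAMP response element TGACGTCA. RefSeq start regions (GRCm38.p6, 250 bases before to 50 after the start) were matched by position to 37 of the 41 members. They were searched on both strands for TGACGTCA, for CCAAT, for the octamer ATTTGCAT of H2A and H2B promoters, and for TATAAA; none of these strings contains another. CCAAT was in 32 of the 37, namely in all 32 matched H1, H2A, H2B and H3 genes and in 0 of the 5 H4 genes, beside 37.4% of all 32851 start regions of the same length. The octamer was in 9 (5 H2A and 4 H2B genes, 1.74% of all regions) and TATAAA in 19 (13.6% of all). These counts are by member and not by element. Hist1h2aa and Hist1h2ba share their octamer, as do Hist1h2ae and Hist1h2bg, since the start regions of such neighbours overlap. Strings of CCAAT and TATAAA can be shared in the same way. TGACGTCA was in 3 members (1.79% of all): Hist1h4h, and the divergent pair Hist1h2ag and Hist1h2bj, which share one element between their starts. In the lines below the strings found are in capitals. The first 2 genes are the Hist3 pair, whose fold changes were the highest of the abundant members in the fit to all 6 libraries, and the others carry TGACGTCA.
Hist3h2ba, chr11:58948661-58948960, plus strand: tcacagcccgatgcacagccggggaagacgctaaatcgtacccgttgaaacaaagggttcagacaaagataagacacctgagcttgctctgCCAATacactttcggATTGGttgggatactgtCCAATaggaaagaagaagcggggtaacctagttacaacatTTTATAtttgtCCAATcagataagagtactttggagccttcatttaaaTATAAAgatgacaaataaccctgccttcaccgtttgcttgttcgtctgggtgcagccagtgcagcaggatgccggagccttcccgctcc
Hist3h2a, chr11:58954435-58954734, plus strand: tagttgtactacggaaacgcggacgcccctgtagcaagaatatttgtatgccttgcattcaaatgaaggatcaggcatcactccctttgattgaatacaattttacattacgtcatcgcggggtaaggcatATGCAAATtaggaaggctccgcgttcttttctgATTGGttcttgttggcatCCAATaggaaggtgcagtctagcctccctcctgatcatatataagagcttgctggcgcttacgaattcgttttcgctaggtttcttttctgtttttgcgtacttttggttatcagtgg
Hist1h2bj, chr13:22042948-22043247, plus strand: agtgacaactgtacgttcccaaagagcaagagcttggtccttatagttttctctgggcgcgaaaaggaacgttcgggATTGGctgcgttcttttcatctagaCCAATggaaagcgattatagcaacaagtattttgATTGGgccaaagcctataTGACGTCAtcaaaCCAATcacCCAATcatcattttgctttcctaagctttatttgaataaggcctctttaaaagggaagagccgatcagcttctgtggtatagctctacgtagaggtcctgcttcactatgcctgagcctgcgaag
Hist1h4h, chr13:23530794-23531093, plus strand: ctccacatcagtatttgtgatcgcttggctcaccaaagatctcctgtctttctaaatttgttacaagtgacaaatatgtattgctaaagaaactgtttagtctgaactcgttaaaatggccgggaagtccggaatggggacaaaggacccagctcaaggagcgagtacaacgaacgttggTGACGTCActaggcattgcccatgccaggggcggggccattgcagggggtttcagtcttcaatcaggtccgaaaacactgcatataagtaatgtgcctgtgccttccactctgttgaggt
The Hist3h2ba region held 4 CCAAT strings and 2 of TATAAA, and the Hist3h2a region 2 CCAAT strings and the octamer. Neither held TGACGTCA. A match here describes the letters and is no measured binding site.

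The libraries held between 28596444 and 42515838 recovered reads, of which the members took 119244 to 274075. In 2 libraries, those of control clone 1 and dKO clone 3, far more transcripts had no read (2443 and 2363) than elsewhere (863 to 1045). Prkaca, which encodes a PKA catalytic subunit, was at 75.9 to 133 CPM (reads scaled to a common library size) in the controls and 6.65 to 8.49 CPM in the dKO clones, and Prkacb, which encodes another, at 109 to 137 and 99.1 to 105 CPM. Principal cell markers summed to 1131 to 1655 CPM in controls and 1215 to 1309 CPM in dKO clones, but single markers went different ways. Aqp2, the vasopressin-regulated water channel, was at 139.9 to 399 CPM in controls and 1.82 to 3.39 CPM in dKO clones (log2 fold change -6.30, adjusted p = 1.62e-05 by limma). Tfcp2l1 was at 404 to 639 CPM in controls and 735 to 776 CPM in dKO clones, without overlap. Avpr2 was at 51.9 to 62.2 CPM in controls and 44.7 to 50.3 CPM in dKO clones, also without overlap. Scnn1a, Scnn1g and Gata3 overlapped between the groups, and Aqp3 and Elf5 were at most at 1.84 CPM in any library. Of the markers chosen, 4 of 5 for fibroblasts and 3 of 5 for immune cells were in the read table, which lacks Col1a1, Cd68 and Adgre1. Those present summed to at most 5.53 CPM for fibroblasts and 5.96 CPM for immune cells in any library. Germ cell markers summed to 13.1 to 21.7 CPM, most of it Sycp3 (12.1 to 20 CPM).

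Expression of the members was first ranked by level, as CPM per kilobase of the length listed in the table, averaged over the 6 libraries. Of the 41 genes, 31 had a mean of at least 20 CPM, 3 lay between 2 and 20, and 7 were under 2. Hist1h4h, an H4 gene, was the most abundant per length at 1267 ± 224 CPM per kilobase (SD, n = 6), followed by the H2B gene Hist1h2bb at 1052 ± 173. In CPM, Hist1h4h lay above Hist1h2bb in every library, at 573 against 544 in dKO clone 2. Next came the linker histone gene Hist1h1c at 650.0 ± 119.7, Hist1h4k (H4) at 604 ± 115, Hist1h2bm (H2B) at 591 ± 145 and Hist1h2bg (H2B) at 537 ± 105. These SDs mix both groups and hold shifts between clones that the members share. Overlap of the SDs therefore does not decide the order of genes measured in the same libraries, and differences in level between members were not tested. Hist1h1c has a model of 1557 bases that runs past its loop, and its rank per length rests on that length. The H2B genes gave 39.4 to 43.3% of the members' summed CPM per kilobase, the H4 genes 18.0 to 24.2%, H1 12.7 to 15.3%, H2A 11.3 to 12.8% and H3 11.3 to 12.8%, over the 6 libraries. Per listed length, the summed H2B rows lay above the H2A rows, and the H4 rows above the H3 rows, in every library. These sums cover the 15 H2B, 11 H2A, 6 H3 and 5 H4 rows of the table, and some listed lengths run past the loop. How reads of shared sequence were counted is not known, so whether the output of whole classes differs was not tested.

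The low members fell into a testis set and a set with near-identical copies. Hist1h1t, Hist1h2ba and Hist1h2aa, which encode the testis forms of H1, H2B and H2A, had 4 to 17, 6 to 12 and 1 to 8 reads per library. Hist1h2bq had 2 to 6 reads, Hist1h4m 9 to 35, Hist2h2aa1 12 to 58 and Hist2h2aa2 20 to 52. Every 50-base word of the GENCODE M21 models of Hist1h2bq and Hist2h2aa1 occurs at another locus, as do 96.3% of those of Hist2h2aa2 and 89.8% of those of Hist1h4m. How reads that fit several loci were counted is not known here, and the part of shared sequence in these low values was not tested. For the abundant members the shared part was also large in places: 86.4% in Hist1h2bn, 82.8% in Hist1h2bl and 79.7% in Hist2h3b. It was 22.1% in Hist3h2ba, 2.0% in Hist3h2a and 0.0% in Hist1h1a and Hist1h1b.

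**Figure D1:**
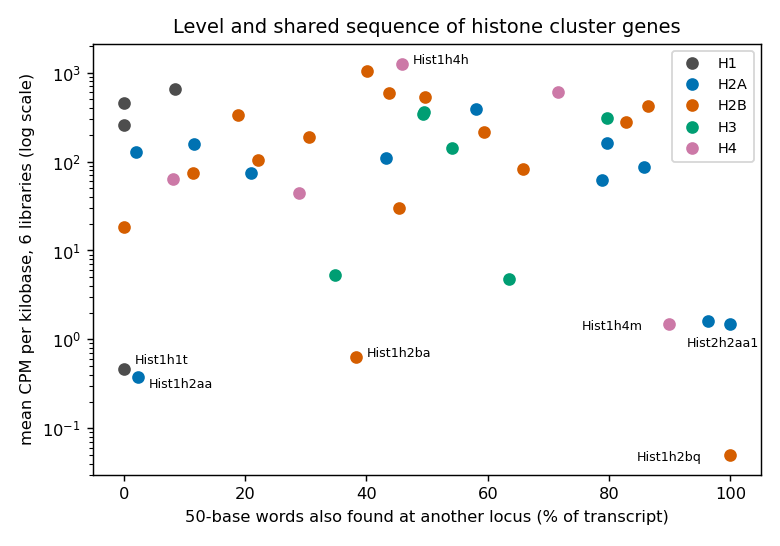
Mean level of each of the 41 members over the 6 libraries (vertical axis, CPM per kilobase of listed length, log scale) against the share of the 50-base words of its GENCODE M21 model that also occur at another locus (horizontal axis, percent), coloured by class. A model can be longer than the listed transcript, as for Hist1h2bh, with 385 bases listed and 1679 in the model (18.8% shared). Hist2h2aa1 and Hist1h2bq sit at 100% and at low levels, while Hist1h1t and Hist1h2aa are low with 0.0% and 2.3% shared.

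Expression was then compared between the clones. The histone cluster genes as a body had higher values in the dKO clones, with a ratio of 1.30 in summed level, but no single member passed the test across all genes. Of the 39 members tested, 38 had a log2 fold change above 0, where 49.8% of all 16683 genes tested did. The median of the members was 0.39, with the middle of the distribution between 0.27 and 0.59, and that of all genes was -0.002. After adjustment 0 of 39 members were called by limma, where 0.168% of all genes were called in either direction and 0.0539% as higher; the smallest adjusted p among members was 0.104. An unadjusted p under 0.05 with a higher dKO mean was found for 15 of 39 members and 2.4% of all genes, and for 0 members with a lower one. In 9 of 39 members every dKO library lay above every control library, as in 5.17% of all genes. The members vary together, so these counts are not 39 separate observations. Hist1h2aa and Hist1h2bq had too few reads to be tested.

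**Figure D2:**
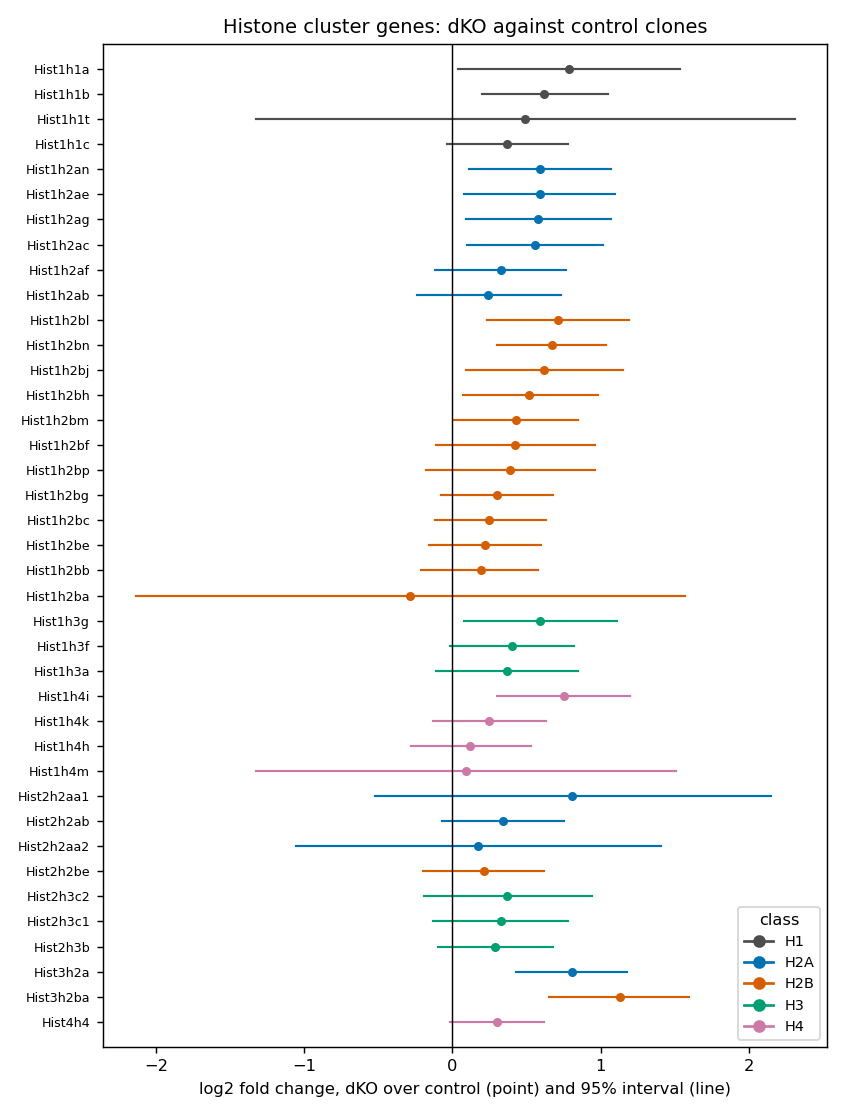
Fitted log2 fold change of each of the 39 tested members, dKO over control (points), with 95% intervals (lines), grouped by cluster and class. All points but that of Hist1h2ba lie to the right of 0, the furthest is Hist3h2ba at 1.13, and the widest intervals belong to the members with few reads.

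Summed over the clusters, control clones 1, 2 and 3 gave 5882, 3904 and 5608 CPM, whereas dKO clones 1, 2 and 3 gave 5685, 6683 and 7689 CPM. The groups overlapped, since dKO clone 1 lay below control clone 1. The means were 5131 ± 1072 and 6686 ± 1002 CPM (SD, n = 3), a ratio of 1.30. The ratio was 1.30 in the 4 libraries left without control clone 1 and dKO clone 3, and 1.31 between those 2 libraries alone. It was 1.16 without control clone 2 and 1.21 without dKO clone 3, and at most 1.41, without control clone 1. As a share of all reads, without the adjustment between libraries that the CPM values carry, the members took 0.535, 0.417 and 0.573% in the controls. In the dKO clones they took 0.589, 0.691 and 0.724%. These shares did not overlap, but narrowly, at 0.573 against 0.589%. They are the same reads as the overlapping CPM sums above and differ from them only by that adjustment. In bulk RNA, more cells holding these mRNAs and more of them per cell cannot be told apart. By class the ratio of summed CPM was 1.44 for H2A, 1.36 for H1, 1.30 for H2B, 1.29 for H3 and 1.15 for H4. By cluster it was 1.28 for Hist1, 1.22 for Hist2, 1.81 for Hist3 and 1.23 for Hist4.

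**Figure D3:**
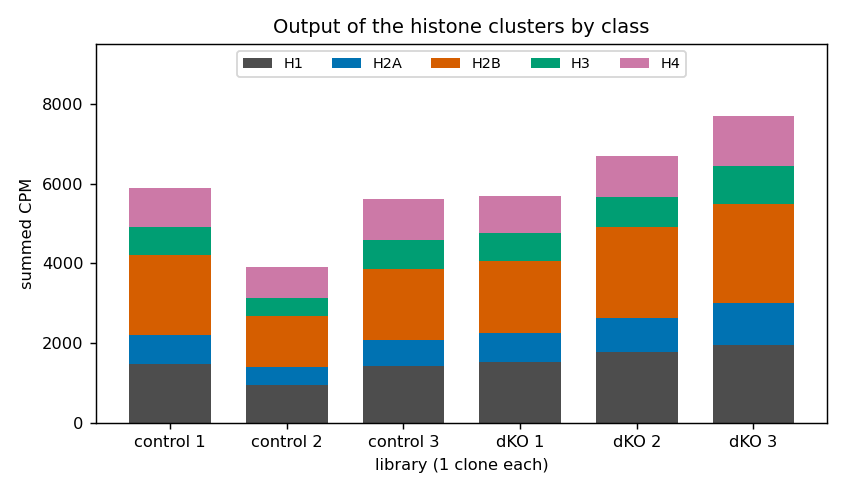
Summed CPM of the members in each library (vertical axis), stacked by class, for 3 control and 3 dKO clones. Control clone 2 has the lowest column (3904) and dKO clone 3 the highest (7689), and dKO clone 1 (5685) stands at the height of control clones 1 and 3.

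The 4 linker histone genes had log2 fold changes between 0.37 and 0.79. Hist1h1b was at 329, 201 and 278 CPM in the controls and 336, 427 and 470.3 CPM in the dKO clones. The groups did not overlap, but dKO clone 1 lay only just above control clone 1; the log2 fold change was 0.62 (SE 0.19, unadjusted p = 0.00839, adjusted p = 0.431 by limma). Hist1h1a was at 165, 59.3 and 156 CPM in the controls and 145, 234 and 234 CPM in the dKO clones. Here control clone 2 was far below the others and dKO clone 1 lay below control clones 1 and 3. The log2 fold change of 0.79 (SE 0.34) was 0.31 without control clone 2 and 1.06 without control clone 1. Hist1h1c, the highest linker gene, was at 982, 689 and 996 CPM in the controls and 1046, 1108 and 1252 CPM in the dKO clones (log2 fold change 0.37, SE 0.19, adjusted p = 0.887), without overlap; without control clone 2 its log2 fold change was 0.19. Hist1h1t, the testis H1, gave 0.49 with an SE of 0.83 at these few reads.

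Among the H2A and H2B genes, which form the dimer at the surface of the nucleosome core, the pair in the Hist3 cluster on chromosome 11 had the largest fold changes of the abundant members in the fit to all 6 libraries. The order was not stable for Hist3h2a, at 0.81 log2 beside 0.79 for Hist1h1a: in the 4 libraries these were 0.83 and 0.94, and Hist1h1a was also the higher of the 2 without control clone 1, control clone 3 or dKO clone 1. The 2 genes lie within 7.91 kb, on the same strand, each with 1 exon: Hist3h2ba at chr11:58948920-58949533 and Hist3h2a at chr11:58954685-58956830. Hist3h2ba was at 55.2, 31.2 and 35.8 CPM in the controls and 70.6, 85.7 and 106 CPM in the dKO clones. Every dKO clone was above every control, the means being 40.7 ± 12.7 and 87.6 ± 18.0 CPM. The fold change was 2.19 (95% interval 1.57 to 3.04; log2 1.13, SE 0.22), with an unadjusted p of 0.000278 and an adjusted p of 0.104 by limma. Hist3h2a was at 231, 157 and 208 CPM in the controls and 296, 345 and 394 CPM in the dKO clones, again without overlap. Its fold change was 1.75 (95% interval 1.35 to 2.27; log2 0.81, SE 0.17; unadjusted p = 0.000588, adjusted p = 0.133). Per length, the pair made up 2.04, 1.95 and 1.70% of the members' output in the 3 controls and 2.80, 2.78 and 2.83% in the dKO clones. The rank of the pair was read from the fold changes themselves; whether it differs from the other members was not tested.

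**Figure D4:**
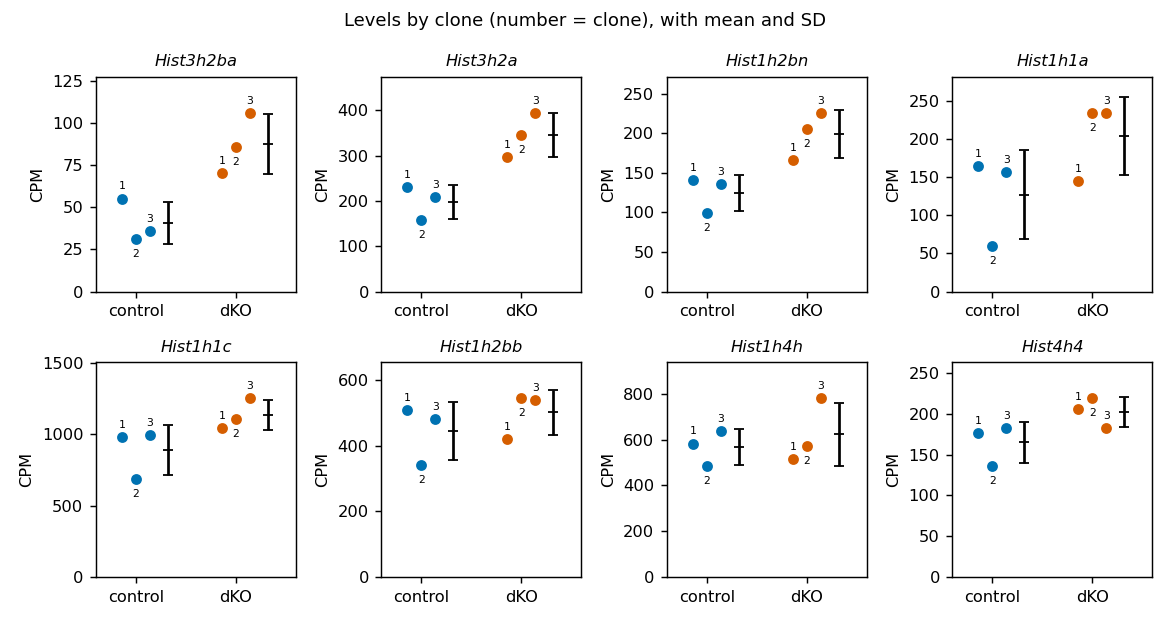
Levels of 8 members in each clone (points, numbered by clone; vertical axes in CPM from 0), with the mean and SD of each group of 3 at its right. Hist3h2ba, Hist3h2a, Hist1h2bn and Hist1h1c have all 3 dKO clones above the controls, while Hist1h1a, Hist1h2bb, Hist1h4h and Hist4h4 overlap.

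The 12 tested H2B genes of the Hist1 cluster had log2 fold changes from -0.29 to 0.71; differences between members were not tested. Hist1h2bn was at 141, 99.4 and 136 CPM in the controls and 166, 206 and 226 CPM in the dKO clones, without overlap (log2 fold change 0.67, SE 0.17; unadjusted p = 0.00205, adjusted p = 0.231). Hist1h2bl was at 107, 55.9 and 85.1 CPM against 108, 138 and 150.2 CPM, with dKO clone 1 only just above control clone 1 (log2 0.71, SE 0.22). Both transcripts share most of their sequence with other H2B genes, so their reads cannot be assigned to them with certainty. Hist1h2bb, the most abundant H2B gene, was at 507, 342 and 482 CPM in the controls and 421, 544 and 538 CPM in the dKO clones, which overlap (log2 0.19, SE 0.18). Hist1h2bm and Hist1h2bg had log2 fold changes of 0.43 (SE 0.19) and 0.30 (SE 0.17), and both overlapped. Without control clone 2 the values were 0.01 for Hist1h2bb, 0.24 for Hist1h2bm and 0.16 for Hist1h2bg. Hist1h2ba, the testis H2B and the only tested member below 0, gave -0.29 with an SE of 0.84.

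The Hist1 H2A genes lay between 0.24 and 0.59. Hist1h2ac was at 70.9, 45.4 and 66.5 CPM in the controls and 68.2, 89.1 and 113 CPM in the dKO clones (log2 0.56, SE 0.21), so dKO clone 1 sat among the controls. Hist1h2ab and Hist1h2af, with higher levels per length, had 0.24 (SE 0.22) and 0.33 (SE 0.20). Without control clone 2 the values were 0.36 for Hist1h2ac, -0.02 for Hist1h2ab and 0.13 for Hist1h2af. Divergent H2A and H2B genes could be read side by side. In 4 pairs beside the testis pair, 242 to 286 bases lie between the starts of the listed transcripts. RefSeq starts can differ from these, by 99 bases for Hist1h2ae. The pair that shares a TGACGTCA element, Hist1h2ag and Hist1h2bj, had log2 fold changes of 0.58 (SE 0.22) and 0.62 (SE 0.24). Hist1h2an and Hist1h2bp had 0.59 (SE 0.22) and 0.39 (SE 0.26), Hist1h2ae and Hist1h2bg 0.59 (SE 0.23) and 0.30 (SE 0.17), and Hist1h2ac and Hist1h2bc 0.56 (SE 0.21) and 0.25 (SE 0.17). The 2 genes of a pair were measured in the same 6 libraries, so these standard errors do not give the error of their difference. Differences within pairs were not tested. In the Hist2 cluster, Hist2h2aa1 had a log2 fold change of 0.81 with an SE of 0.61, on few reads that all its 50-base words share with a copy.

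H3 and H4 form the tetramer at the centre of the nucleosome. The 6 H3 genes had log2 fold changes between 0.29 and 0.59. Hist1h3f was at 292, 184 and 289.5 CPM in the controls and 293, 314 and 389 CPM in the dKO clones, where dKO clone 1 exceeded control clone 1 by about 1 CPM (log2 0.40, SE 0.19). Hist1h3a was at 191, 117 and 199 CPM against 179, 199 and 270.1 CPM, which overlap (log2 0.37, SE 0.22), and Hist2h3b, in the Hist2 cluster, at 151, 103 and 151 CPM against 148, 147 and 197 CPM (log2 0.29, SE 0.18). Hist1h3g was the H3 gene with the highest fold change, at 59.7, 30.1 and 55.8 CPM against 61.1, 68.4 and 82.3 CPM (log2 0.59, SE 0.23). Without control clone 2 the log2 fold change was 0.18 for Hist1h3f, 0.12 for Hist1h3a and 0.11 for Hist2h3b.

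Hist1h4h, the most abundant H4 gene, had the smallest log2 fold change of the members of at least 20 CPM in the fit to all 6 libraries. It was at 583, 483 and 636 CPM in the controls and 517, 573 and 781 CPM in the dKO clones (log2 0.12, SE 0.18, 95% interval -0.28 to 0.53). Its dKO clones 1 and 2 lay inside the control range and only clone 3 above it; the log2 fold change was -0.02 in the 4 libraries without the pair that stood apart and 0.42 between those 2 alone. This gene carries TGACGTCA in its start region. Hist1h4k was at 189, 137 and 188 CPM against 176, 187 and 248 CPM (log2 0.25, SE 0.17). Hist1h4i, a weaker H4 gene, went the furthest of its class, at 28.2, 16.8 and 26.8 CPM in the controls and 34.6, 37.8 and 46.3 CPM in the dKO clones, without overlap (log2 0.75, SE 0.21; unadjusted p = 0.00387, adjusted p = 0.317). Hist1h4m gave 0.09 with an SE of 0.64. Hist4h4, the lone gene of the Hist4 locus at chr6:136801553-136804415, was at 176, 136 and 183 CPM against 206, 219 and 182 CPM (log2 0.30, SE 0.15). Without control clone 2 the log2 fold change was 0.09 for Hist1h4k and 0.17 for Hist4h4. It was the one abundant member for which dKO clone 3 was the lowest dKO library. Other genes of chromosome 6 were also low in that library, at a median of -0.27 log2 relative to their own mean over the libraries (359 genes), against 0.14 to 0.17 for chromosomes 3, 11 and 13. The part of this in the value of Hist4h4 was not tested.

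The members' levels varied together from clone to clone, within the groups as well as between them. Over the 31 members of at least 20 CPM, the median log2 distance from the control mean was 0.27 in control clone 1, -0.39 in clone 2 and 0.15 in clone 3. Among the dKO clones it was 0.20, 0.50 and 0.71 in the same order. Control clone 2 was the lowest of the 6 libraries for 35 of 39 members (20.4% of all genes), and dKO clone 3 the highest for 30 of 39 (22.1% of all genes). The 465 pairs of these 31 members had a median Pearson r of 0.91 over the 6 libraries, the lowest being 0.26, and 83.0% exceeded 0.8; the 6 points of each pair share their library and depth. The range over 3 clones was wider than usual: its median was 0.71 log2 in the controls and 0.51 in the dKO clones for the members, against 0.33 and 0.28 for the 7825 genes of at least 20 CPM. By these medians dKO clone 1 lay below control clone 1, and the widest gap was between control clone 2 and dKO clone 3.

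**Figure D5:**
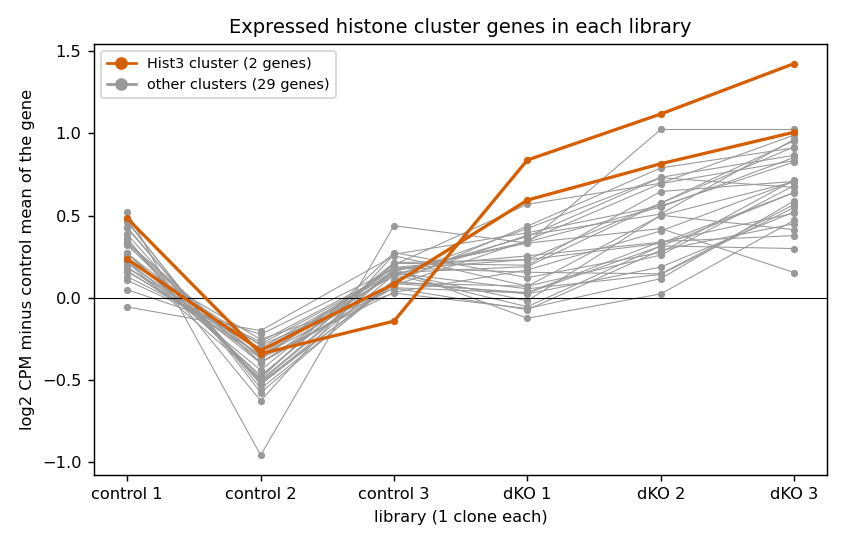
Each of the 31 members of at least 20 CPM in the 6 libraries, as log2 CPM minus the mean of that gene's 3 control values (vertical axis); lines join the values of 1 gene and imply no order of clones. All lines dip at control clone 2, between -0.96 and -0.20, and lie above 0 in dKO clones 2 and 3, and Hist3h2ba (upper orange line there) is uppermost in each dKO clone.

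Genes outside the clusters with a listed length under 600 bases had a median log2 fold change of -0.07 (102 genes of at least 20 CPM), against 0.43 for the 20 members of that length. In control clone 2 these other short genes lay at -0.04 log2 from their own mean over the libraries and the members at -0.67.

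The genes that make, process and use histone mRNA were read from lists drawn up by function, and 0 of their members were called by limma, by DESeq2 or by edgeR's quasi-likelihood test. Of 20 genes for histone mRNA transcription and processing, 14 had a log2 fold change above 0 and 0 had an unadjusted p under 0.05, with a median of 0.11. Npat, the co-activator of the clusters, was at 182, 141 and 148 CPM in the controls and 166, 171 and 199 CPM in the dKO clones (log2 0.19, SE 0.14). Slbp, whose product binds the stem-loop, was at 247, 166 and 178 CPM against 198, 197 and 211 CPM (log2 0.06, SE 0.16). Casp8ap2, a component of histone locus bodies, had 0.24 (SE 0.14), Lsm11, of the U7 particle that cleaves histone mRNA, 0.29 (SE 0.14), and Ncbp2, of the nuclear cap-binding complex, 0.21 (SE 0.14). Their summed level was lowest in control clone 2, at 1679.5 CPM, against 1854 to 2148 CPM in the other libraries.

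Of 15 histone chaperones and carriers, 11 had positive values, with a median of 0.07 and 1 unadjusted p under 0.05, which was a lower one: Ipo4, an importin that carries histones, at 104, 75 and 70.1 CPM against 66.4, 56.0 and 53.9 CPM (log2 -0.48, SE 0.17, adjusted p = 0.508). In the authors' deposited edgeR results Ipo4 was lower at a false discovery rate of 0.0472 (log2 -0.50). Chaf1b, a subunit of the replication-coupled chaperone CAF-1, had 0.21 (SE 0.15) and Nasp, a chaperone of H1 and H3, 0.25 (SE 0.13). Of the 11 replacement and other unclustered histone genes, many of which are expressed outside S phase too, 9 had positive values with a median of 0.12. H1f0, the linker histone of resting cells, was at 729.7, 558 and 634 CPM against 758, 837 and 929 CPM, without overlap (log2 0.40, SE 0.16, adjusted p = 0.683). H3f3b, for a replacement H3, had 0.24 (SE 0.16) and H2afx, for H2A.X, 0.22 (SE 0.20).

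Of 22 S phase genes, chiefly of DNA replication, 15 had positive values, with a median of 0.04 and 0 unadjusted p under 0.05 in either direction. Mcm2, of the replicative helicase, was at 447, 347 and 392 CPM in the controls and 347, 336 and 305 CPM in the dKO clones (log2 -0.26, SE 0.14), the licensing factor gene Cdt1 had -0.38 (SE 0.19), and Cdc6, another licensing factor gene, 0.26 (SE 0.16). All 12 mitotic genes had positive values, with a median of 0.26 and 3 unadjusted p under 0.05: Top2a, for DNA topoisomerase II alpha, at 584, 525 and 598 CPM against 657, 811 and 834 CPM (log2 0.43, SE 0.15, adjusted p = 0.568), Bub1, for a spindle checkpoint kinase, with 0.42 (SE 0.13, adjusted p = 0.441), and Kif11, for a spindle motor, with 0.42 (SE 0.17). The S phase list summed to 4517 to 5782 CPM in the controls and 5102 to 5605 CPM in the dKO clones, and the mitotic list to 1961 to 2889.8 and 2790.1 to 3112 CPM. The part of these levels in the members' difference was not tested.

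The genes whose levels went most like the members' summed CPM over the 6 libraries, among 9892 others of at least 5 CPM, included Slc35e2 and Polr3f (Pearson r = 0.995 each) and 2700099C18Rik and Asnsd1 (0.993 each). Slc35e2 was at 55, 47.6 and 53.4 CPM in the controls and 55, 57.4 and 60.2 CPM in the dKO clones, a far narrower range than the members'. In all, 386 of the 9892 genes had an r above 0.9, over 6 points that share library and depth.

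Other fits differed in how many members they called. The authors' deposited table of edgeR results lists 34 of the members among 10190 transcripts, all 34 with a positive log2 fold change. In it 6 members were higher at a false discovery rate under 0.05, where 0.981% of the listed transcripts were: Hist3h2ba (log2 1.10, 5.81e-07), Hist3h2a (0.78, 7.94e-06), Hist1h2bn (0.65, 0.00109), Hist1h4i (0.71, 0.00766), Hist1h1b (0.60, 0.00814) and Hist1h2bl (0.67, 0.00993). DESeq2 on the recovered reads called 3 of 34 members (Hist3h2ba, Hist3h2a and Hist1h2bn) and 0.489% of all genes as higher, and edgeR's quasi-likelihood test on the same reads called 0. Without control clone 1 and dKO clone 3, limma called 9 of 39 members and 1.53% of all genes as higher. These were the 6 of the authors' table with Hist1h1a, Hist1h2an and Hist1h2bj. Over all 19 alternatives the adjusted p ranged from 2.05e-06 to 0.217 for Hist3h2ba and from 0.000618 to 0.363 for Hist3h2a, while their log2 fold changes stayed between 0.96 and 1.37 and between 0.64 and 0.93. The sign was positive for 36 to 38 of the 39 members under every alternative that tested 39.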

How the data were processed

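Total RNA (262 ng per library) was depleted of ribosomal RNA and made into stranded, randomly primed libraries, per the labels' protocols. Tools listed without roles in the submitters' processing notes are SAMtools, edgeR, HOMER 4.8 and STAR 2.5.2a, with the build GRCm38.p5. Read length, the use of strand and the treatment of reads that fit several loci are not given in the sources used here. In the deposited table the read columns are a signal, reads that the authors scaled so that every library has the same total; dividing by each library's step (0.427 to 0.635) gave whole reads for 100.0% of values within 0.01 scaled reads. The deposited FPKM values divide by listed length and by totals of which these reads are 31.7 to 48.7%, so FPKM served only to choose abundant members. The authors' second table gives log2 fold changes, p-values and false discovery rates, per the file headers.

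Reads were adjusted with TMM factors (edgeR 4.0.16; 0.909 to 1.068) to CPM. limma-trend (limma 3.58.1, R 4.3.3) was fitted to log2(adjusted scaled reads + 1) over 6 libraries with group as the term, on 16683 genes kept by filterByExpr (minimum 10 reads, total 15), with Benjamini-Hochberg adjustment and a threshold of 0.05. The added 1 understates changes of low genes. With 1 library per clone, p-values weigh the difference against the spread between these libraries, which may in part be technical. DESeq2 1.42.0 and 18 other settings were alternatives. The scripts were tested on simulated data.

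The members and lists were chosen with earlier results of these data known. Named were the 3 members of each class with the highest FPKM, the 4 with the lowest p, the 3 highest and 3 lowest by fold change, the Hist3, Hist4 and testis members, the 3 lowest p of each list with Slbp and Npat, and the 5 genes most like the members' sum, of which 1 is not reported here. Chosen after seeing values were Hist1h2bl, Hist1h3g, Hist1h2be, Hist1h2bq, Hist2h2aa2, Hist1h2an, Prkaca, Prkacb and the divergent pairs. The rows of Hist1h2bh and Hist1h2bm carry transcript identifiers that GENCODE M21 places at other H2B genes, and M21 exchanges the symbols of Hist2h2aa1 and Hist2h2aa2; rows were kept as deposited.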

Additional observations from a re-analysis of the deposited data

How the results depend on the processing

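Of the histone cluster genes, 0 were called by limma. With DESeq2 on the recovered reads 3 were called, in the 4 libraries without control clone 1 and dKO clone 3 there were 9, and with the split of those libraries as a term 2. Leaving out each library in turn gave 0 to 4, the 4 without control clone 1. Over all genes, 28 were called; the counts were 213 with DESeq2, 17 with no adjustment beyond the common total, 11 with a mean of at least 50 reads, 518 in the 4 libraries, 71 with the split term and 11 to 146 with a library left out, the highest without control clone 1. Of the supporting lists, those of cell type markers left aside, 0 genes were called, 2 in the 4 libraries, and 0 to 1 with a library left out, the 1 without control clone 1. The cause was not tested. With a library left out, the members' median log2 fold change of 0.39 was 0.24 (without control clone 2) to 0.52 (without control clone 1). The ratio of summed CPM of 1.30 was then 1.16 to 1.41, without the same 2 clones. Under the other alternatives the median was 0.35 (DESeq2) to 0.40 (no adjustment beyond the common total), and the ratio, where computed, 1.29 to 1.31.

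The sign of the log2 fold change reversed for 5 named genes, of which 0 had passed the threshold. With a library left out, Hist1h2ab ranged from -0.02 to 0.46, Hist1h4m from -0.30 to 0.35 and Slbp from -0.06 to 0.23, each lowest without control clone 2, and Hist1h4h from -0.05, without dKO clone 3, to 0.25. Slbp was at -0.00 without control clone 3. In the 4 libraries Hist1h4h was at -0.02 and Hist1h1t at -0.10, and with DESeq2 Hist1h4m was at -0.01.

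The replicate block, with clone number as a term, gave 4 members and 196 genes. Same-numbered clones did not deviate together in every pair (r of -0.11, 0.53 and -0.09), and they share only a number.

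Depth limits the 7 members under 2 CPM, and 3 clones per group limit the rest.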
